A study of Mus musculus with 2 samples.

Results

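The proteasome is the barrel-shaped protease that degrades ubiquitin-tagged proteins. Its core particle stacks rings of alpha subunits, which form the gate, on rings of beta subunits, of which a few cut peptide bonds. The regulatory particle caps the core: its lid and base bind and trim the ubiquitin chain, and a ring of ATPases unfolds the substrate. Blood and immune cells often replace the cutting beta subunits with interferon-inducible immunoproteasome subunits, which shape the peptides shown on MHC class I, and proteasome inhibitors are used against B-lineage cancers.

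The members here are the genes on the array whose symbol begins with Psma to Psmg and a number, found through the RefSeq accession of each non-control probe. The rule found 50 genes, covered by 61 probes and 70 spots, of 20618 genes with a symbol. Of these, 47 were measured on both arrays, that is, had a probe well above background on each; they lie among 10521 genes so measured. The rule uses names only, not values.

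The arrays compare populations of murine B-ALL cells (a leukaemia of B-cell precursors) sorted from bone marrow, with an age of 8 weeks in the labels. SoNar is a fluorescent sensor of the cytosolic NADH/NAD+ ratio, and the sort used the ratio of its signal under violet to that under blue excitation. One population is SoNar-high and the other SoNar-low, and both are sensor-bearing leukaemia cells of the same kind. The titles use the words N-myc-high or N-myc-low in place of the sensor's name; strain, number of animals and the leukaemia's driver are not given in the sources used here. There is 1 single-colour Agilent array per population, so n = 1 per group, no difference below has a replicate check, and no test between the populations was possible.

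On the SoNar-high array 44.8% of spots were well above background, against 72.9% on the SoNar-low array, and no spot was saturated. The arrays went through separate scan sessions, and the effect of the session cannot be told apart from that of the population. Differences below are log2 values, SoNar-high minus SoNar-low, after each array was divided by its 75th percentile (409 intensity units for SoNar-high, 470 for SoNar-low), which adds 0.20 to the difference of the signals as deposited. The scanner software put the error of a member's signal at about 10% of it, which gives a difference between single probes an error of 0.20; this covers the spot only, not cells, animals or sorts. Among 197 probes printed as 10 spots the SD of a difference between single spots had a median of 0.15.

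The value of each measured proteasome gene, averaged over its probes, lay within 2-fold between the populations, though 1 of the Psmg1 probes did not (-1.03). No member was at least 2-fold higher or lower on the SoNar-high array, where 2.40% and 4.39% of all measured genes were (6.80% in either direction). With median scaling 23 members passed 2-fold upwards, and so did 32.1% of all measured genes. At 1.5-fold 14 of 47 members were higher and 1 was lower, against 20.4% and 10.2% of measured genes. Of 5437 genes with signals in the members' range, 1488 were higher and 255 lower at 1.5-fold. The member values ran from -0.61 (Psmc3ip) to 0.98 (Psme3), with a median of 0.40, while the median over all measured genes, called the median gene below, was 0.22. Of the 47 members 37 lay above 0 and 32 (68.1%) above the median gene, while 66.9% of all measured genes lay above 0. Of the genes with signals in the members' range 79.2% lay above 0 and 62.6% above the median gene. The zero depends on the scaling: with the 75th percentile taken over probes seen on both arrays every difference is 0.30 lower and 28 members lie above 0 (Psmb5, Psmb8, Psmc3, Psmd1, Psmd5, Psmd9, Psmd10, Psmd11 and Psme2 change sign). With median scaling every difference is 0.57 higher and 46 do. Positions relative to the median gene do not depend on the choice of such a constant and are used for the groups.

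**Figure D1:**
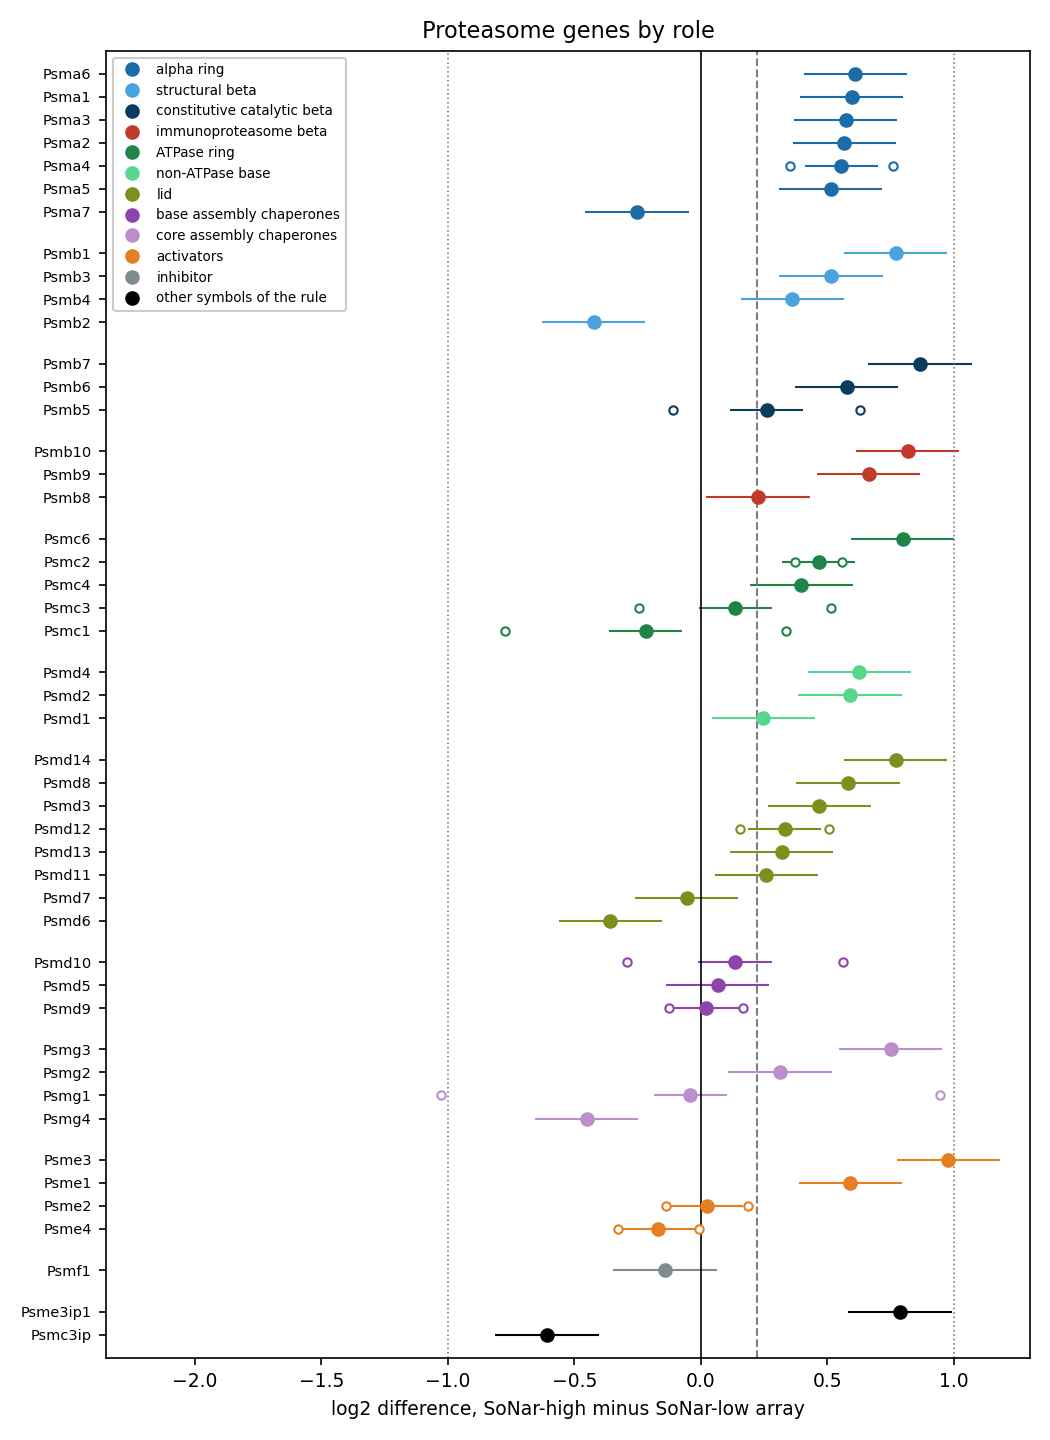
Difference between the arrays for the 47 measured proteasome genes, on the x axis as log2 SoNar-high minus SoNar-low, with genes grouped by role on the y axis. Filled points are gene values with the scanner's error as a bar, open points are the single probes of genes with several, the dashed line is the median gene at 0.22 and dotted lines mark 2-fold; 6 of 7 alpha subunits sit between 0.51 and 0.61 and no gene value passes 2-fold. Every point moves by 0.57 or by -0.30 relative to the solid line at 0 under the other constant scalings.

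The alpha ring, which forms the outer wall and gate of the core, was even but for 1 gene under the reported processing. Of its 7 measured genes 6 lay between 0.51 and 0.61, a range smaller than the error of a single difference. The narrow range does not hold under every setting. With the brightest probe of each gene the 6 stood 0.24 (Psma5) to 0.49 (Psma4) above the median gene. Psma6 gave 10828 units in SoNar-high and 8159 in SoNar-low cells (0.61). Psma5 gave 24325 and 19599 units in the same order (0.51). These genes were higher on the SoNar-high array under all 11 processing settings, as were Psma1 (0.60), Psma3 (0.57), Psma2 (0.57) and Psma4 (0.56, with 2 probes at 0.35 and 0.76). The exception was Psma7, with 6743 units in SoNar-high and 9235 in SoNar-low cells (-0.25, by 1 probe), which lay below the median gene under those 11 settings. Psma8, which encodes the testis form of the subunit that Psma7 encodes, did not pass the background test on either array (26.5 and 18.0 units).

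The structural beta subunits build the inner rings without cutting. Psmb1 was the highest of the 4, with 9979 units in SoNar-high and 6729 in SoNar-low cells (0.77). Psmb3 (0.51) and Psmb4 (0.36) lay between, and Psmb2, with 5915 and 9121 units, was lowest (-0.42, by 1 probe). Psmb2 also lay below the median gene under all 11 settings. The constitutive core as a whole had a median of 0.56 over 14 measured genes of 15, or 0.34 above the median gene. Above the median gene lay 12 of 14 (85.7%), against 62.6% of genes with signals in the members' range.

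The 3 cutting sites of the core exist in a constitutive and an immunoproteasome version. Both versions were measured on both arrays at each site. Psmb5, the constitutive chymotrypsin-like subunit that proteasome inhibitors target, had probes that disagreed: 34224 and 25434 units by one (0.63), and 4844 and 6011 by the other (-0.11), with a mean of 0.26. Its immunoproteasome counterpart Psmb8 gave 7510 and 7384 units (0.23). The pair differed by -0.03 (immunoproteasome minus constitutive, scanner error 0.25), or by -0.40 to 0.34 with either Psmb5 probe alone. At the caspase-like site Psmb6 gave 42110 and 32478 units (0.58) and Psmb9 gave 4721 and 3428 (0.66), which is 0.09 apart (error 0.29). At the trypsin-like site Psmb7 gave 1193 and 752 units (0.87) and Psmb10 gave 8850 and 5773 (0.82), which is -0.05 apart (error 0.29). All 6 genes had a higher scaled signal on the SoNar-high array, though Psmb8 and Psmb5 fall below 0 once 0.30 is taken off by the other percentile scaling.

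Over the 3 pairs the mean difference between versions was 0.0015 (scanner error 0.16). It ran from -0.13 (quantile normalization) to 0.062 (normexp) over the processing settings, and no constant scaling changes it. A shift in the balance of immunoproteasome and constitutive messages was therefore not detectable at this precision, which does not show that the balance was equal. Signals of different probes cannot be set against each other, so the share of immunoproteasome message in either population is not known from these arrays.

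**Figure D2:**
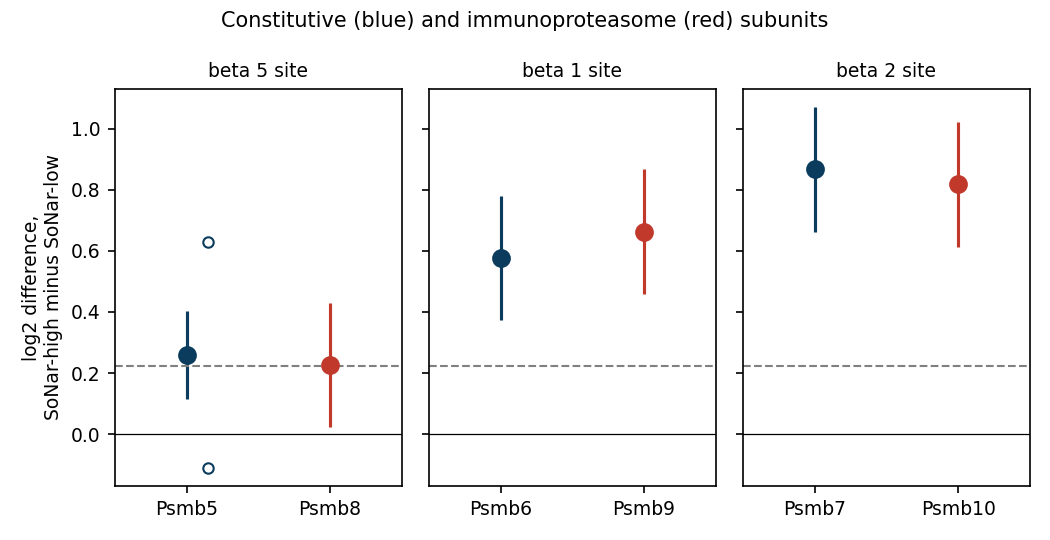
Log2 difference, SoNar-high minus SoNar-low, on the y axis for each constitutive subunit (blue) and its immunoproteasome counterpart (red) at the 3 cutting sites. Filled points are gene values with scanner error bars, open points the probes of Psmb5 and the dashed line the median gene at 0.22; within each site both values overlap within their error, and the level of the pair differs between sites from about 0.23 to 0.87. Scaling by another constant moves the values against the line at 0 and leaves the gap within a pair; quantile normalization and loess also change the gap.

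The start regions of both versions at the first 2 sites show how the paired genes differ in sequence. Printed are 250 bases before and 25 after the start, 5′ to 3′, from RefSeq on build GRCm38.p6; capitals mark the motif TGACNNNGC (antioxidant response element, bound by NFE2L1 and NFE2L2), the motif CCAAT (bound by NF-Y) or the interferon response element (bound by interferon regulatory factors), each searched on both strands.
Psmb5, chr14:54617971-54618245, minus strand: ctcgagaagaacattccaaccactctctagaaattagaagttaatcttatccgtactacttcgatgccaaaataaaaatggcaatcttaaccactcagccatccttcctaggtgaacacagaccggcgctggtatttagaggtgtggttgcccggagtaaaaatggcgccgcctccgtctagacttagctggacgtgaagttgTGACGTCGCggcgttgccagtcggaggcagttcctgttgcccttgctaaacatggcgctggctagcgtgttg
Psmb8, chr17:34197945-34198219, plus strand: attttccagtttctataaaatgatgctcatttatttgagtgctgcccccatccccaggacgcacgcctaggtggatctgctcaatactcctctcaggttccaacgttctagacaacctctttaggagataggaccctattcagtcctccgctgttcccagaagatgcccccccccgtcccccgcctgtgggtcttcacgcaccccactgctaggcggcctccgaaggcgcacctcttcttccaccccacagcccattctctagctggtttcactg
Psmb6, chr11:70525107-70525381, plus strand: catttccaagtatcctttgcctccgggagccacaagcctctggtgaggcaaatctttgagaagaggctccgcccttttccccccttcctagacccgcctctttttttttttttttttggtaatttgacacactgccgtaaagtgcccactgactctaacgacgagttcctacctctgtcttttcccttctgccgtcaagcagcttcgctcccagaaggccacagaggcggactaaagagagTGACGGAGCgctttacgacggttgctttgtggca
Psmb9, chr17:34187306-34187580, minus strand: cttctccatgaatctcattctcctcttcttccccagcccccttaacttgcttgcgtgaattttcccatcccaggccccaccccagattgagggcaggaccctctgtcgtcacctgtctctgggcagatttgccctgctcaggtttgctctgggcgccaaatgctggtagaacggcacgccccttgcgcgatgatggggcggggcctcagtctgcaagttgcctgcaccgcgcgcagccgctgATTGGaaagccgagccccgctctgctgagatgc
Psmb5 and Psmb6 hold 1 TGACNNNGC each, Psmb9 holds 1 CCAAT on the opposite strand (its reverse complement is in capitals), and none of the motifs is in the Psmb8 window. Over the 40 measured members with a window, TGACNNNGC stood in 6 (15.0%, against 11.3% of 27025 genes with a window of that length), CCAAT in 14 (35.0% against 36.3%) and the interferon response element in 5 (12.5% against 3.31%). The 27025 genes were not filtered by signal as the members were, so the shares come from unlike sets and were not tested. The median difference was 0.57 in members with CCAAT and 0.33 in those without, 0.30 and 0.49 for TGACNNNGC, and 0.51 and 0.40 for the interferon response element. Members with CCAAT ran from -0.61 to 0.98, those with TGACNNNGC from -0.17 to 0.80. Those with the interferon response element ran from -0.45 to 0.63. A link between motif and difference was not tested. A match is a description of the letters, not of binding.

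The Psmb9 window is also that of Tap1, the peptide transporter gene that starts on the other strand: the windows share all 275 bases. Tap1, printed as 10 spots, gave 344 units in SoNar-high and 436 in SoNar-low cells (-0.14), while Psmb9 lay at 0.66. Psmb8 (0.23) and the second transporter gene Tap2 (4535 and 2800 units, 0.90) follow in gene order in the same table. The 4 neighbours thus spanned values from below the median gene to well above it, and each of the 4 rests on 1 probe.

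The regulatory particle had a median of 0.36 over 16 measured genes of 17, or 0.14 above the median gene, with 12 (75%) above it. Of genes with signals in the members' range 62.6% lay above the median gene. The group's median stood -0.069 from the median gene with quantile normalization and -0.054 with the series matrix, so its side is not settled. Among the 12 genes, Psmc4, Psmd1, Psmd11, Psmd12 and Psmd13 fell on both sides over the settings. Among the ATPases, which unfold the substrate, Psmc6 was highest with 5233 units in SoNar-high and 3461 in SoNar-low cells (0.80). Psmc2 (0.47, probes at 0.37 and 0.56) and Psmc4 (0.40) followed. Psmc3 and Psmc1 were lower by their means (0.14 and -0.22), but in both the probes disagreed. The Psmc1 probes gave 15176 and 13809 units (0.34), and 1956 and 3848 units (-0.77). Psmc5 was left out because its spot carried a non-uniformity flag on the SoNar-low array; with flagged spots kept it gave 14386 and 11297 units (0.55).

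In the base, Psmd4, a ubiquitin receptor, gave 12782 and 9516 units (0.63), and the scaffold genes Psmd2 (0.59) and Psmd1 (0.25) gave smaller values, that of Psmd2 within the error of Psmd4. In the lid, Psmd14, the enzyme that cuts ubiquitin off the substrate, was highest with 3732 units in SoNar-high and 2517 in SoNar-low cells (0.77). Psmd8 (0.58), Psmd3 (0.47), Psmd12 (0.33), Psmd13 (0.32) and Psmd11, whose level can limit assembly of the particle (0.26), came next. Psmd7, which pairs with Psmd14 (-0.06), and Psmd6, with 5655 and 8331 units (-0.36), were lowest, and both lay below the median gene under all 11 settings. Under the reported processing the lid thus held genes on both sides of the median gene, 6 above and 2 below. Of the 6, Psmd11, Psmd12 and Psmd13 do not keep that side under every setting.

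The activators, which open the core without ATP, split. Psme3, which encodes the nuclear activator PA28 gamma, was the highest of all members, with 3095 units in SoNar-high and 1806 in SoNar-low cells (0.98, a 1.97-fold difference, by 1 probe). Psme1 and Psme2 encode the alpha and beta partners of 1 interferon-inducible ring. Psme1, printed as 10 spots, gave 21237 units (SD between spots 0.13 on the log2 scale) and 16208 units (SD 0.04), a difference of 0.59. Psme2 lay at 0.02, with probes at -0.14 (13115 and 16595 units) and 0.19 (2988 and 3022 units), so both of its probes lay below Psme1. Psme4, which encodes PA200, lay at -0.17 (probes at -0.01 and -0.33), and Psmf1, which encodes the inhibitor PI31, at -0.14 (726 and 922 units). Psme4 and Psmf1 lay below the median gene under all 11 settings, Psme3 and Psme1 above it.

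Assembly chaperones build the particles and are not part of the finished enzyme. Their median over 7 genes was 0.07, or 0.16 below the median gene, with 2 of 7 above it. Among the base chaperones Psmd10, the oncoprotein gankyrin, lay at 0.13 with probes at -0.29 and 0.56, Psmd5 at 0.07 and Psmd9 at 0.02 with probes at -0.12 and 0.17. By the brightest probe alone these 3 genes stood 0.29, -0.20 and -0.39 from the median gene. Among the core chaperones Psmg3 gave 2716 units in SoNar-high and 1856 in SoNar-low cells (0.75) and Psmg4 gave 3143 and 4942 (-0.45), with Psmg2 at 0.31. Psmg1 had the widest disagreement between probes of any member, 6050 and 3616 units by one (0.94) and 1414 and 3314 by the other (-1.03), so its mean of -0.04 describes neither. With the brightest probe of each gene the group's median lay 0.042 above the median gene, and with dim probes kept 0.020 above, so its side is not settled.

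Some genes that the symbol rule takes in are not part of the enzyme or gave no value. Psmc3ip encodes a partner of meiotic recombinases and was the lowest of all (527 and 924 units, -0.61). Psme3ip1 encodes a protein that binds PA28 gamma and lay at 0.79 (3391 and 2259 units). Psmb11, the thymus-specific subunit, passed the background test for SoNar-low alone (24.3 units); its 12.5 units for SoNar-high are under 46.4, the lowest signal that passed there, so no fold is given. Without Psmc3ip and Psme3ip1 the median over 45 genes was again 0.40.

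Probes of the same gene often disagreed. Of the 47 genes 36 rest on 1 probe. Of the 11 with several, 7 had probes on both sides of 0 (Psmb5, Psmc1, Psmc3, Psmd9, Psmd10, Psme2 and Psmg1). That is 63.6%, against 46.2% of 2394 such genes on the array. The count moves with the zero: with median scaling only the probes of Psmc1 and Psmg1 lie on both sides. The share of the 2394 genes was not counted under that scaling. The median SD between probes, which no constant changes, was 0.29, against 0.32 over those genes. The scanner error bars therefore understate the error of a gene value. In 8 of the 11 the brightest probe gave the higher difference (72.7%), against 66.5% of those 2394 genes.

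The difference varied with brightness over the whole array, and the members are bright. Their levels ran from 0.33 to 6.40 (log2 signal over the 75th percentile, mean of both arrays), above the array's 75th percentile throughout. Genes within that range had a median difference of 0.35, above 0 in 79.2%, against 0.40 and 78.7% of the members. The interquartile range of the members was 0.55, as it was for those genes (0.55). At levels of at least 2, where 39 members lay, the members' median was 0.51 and that of all 2906 genes 0.39; below it, 8 members had a median of 0.04 against 0.30 over 2618 genes. With loess on the level the members stood 0.046 above the median gene in place of 0.17, the constitutive core 0.23, the immunoproteasome 0.25 and the regulatory particle 0.0055.

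**Figure D3:**
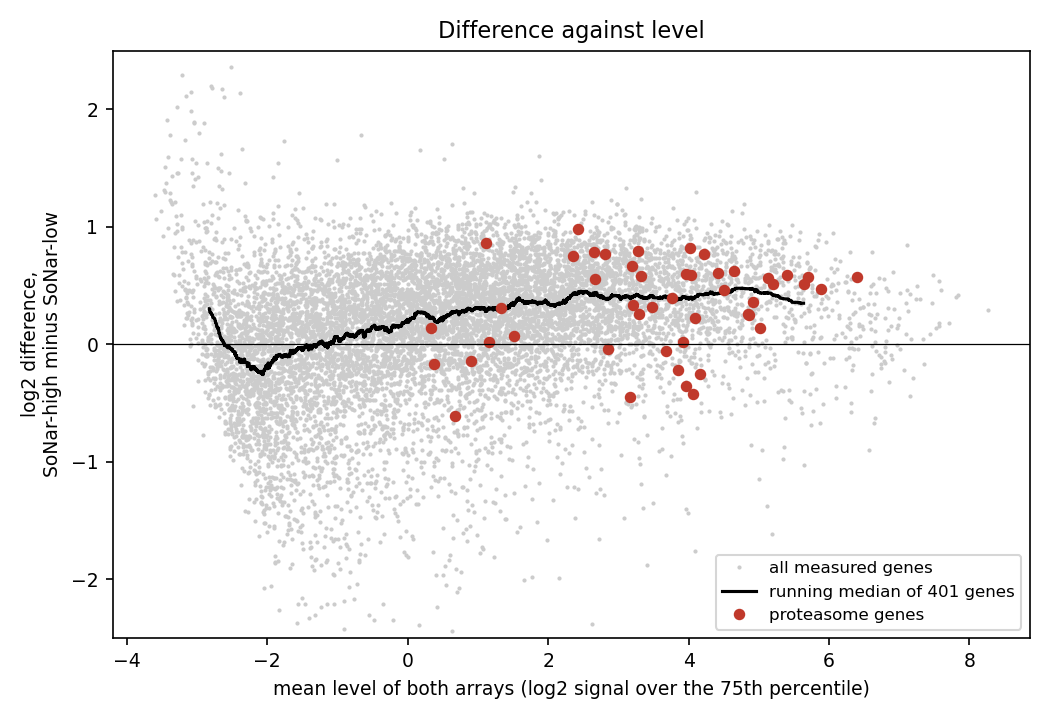
Log2 difference, SoNar-high minus SoNar-low, on the y axis against the mean level of both arrays on the x axis, for all measured genes (grey, 1 point a gene; the few beyond 2.5 either way are not drawn) and the 47 proteasome genes (red). The black line is a running median over genes; it is higher at high levels, where most members lie, and the members scatter on both sides of it, and the zero of the y axis moves under other scalings.

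Other genes of the pathway were taken from lists made by function. Subunits and partners without a Psm symbol had a median of 0.53 over 9 measured genes, with 1 at least 2-fold higher and 0 lower. That gene was Fbxo7, an F-box protein that binds the inhibitor PI31 (1880 units in SoNar-high and 856 in SoNar-low cells, 1.34, by 1 probe). Akirin2, which brings proteasomes into the nucleus, lay at 0.93 (3909 and 2358 units). The lid subunit gene Sem1 (0.23) and Pomp, the core maturation factor (0.13, probes at -0.10 and 0.37), were the lowest of the list. Transcriptional regulators of proteasome genes had a median of 0.36 over 10 genes, with 0 past 2-fold. Nfe2l1, the factor that raises proteasome gene expression when proteasome activity is short, was the lowest of them with 120 and 176 units (-0.35, by 1 probe). That probe is dim: its scaled log2 signals of -1.77 (SoNar-high) and -1.42 (SoNar-low) lie under the members' levels, which start at 0.33. The difference varied with brightness over the array. Ddi2, the protease that activates NFE2L1, lay at -0.08. Syvn1, an ER ubiquitin ligase (0.79), and the NF-Y subunit gene Nfyc (0.68) were highest.

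Ubiquitin and its activating and conjugating enzymes had a median of 0.30 over 14 genes, 0 of them past 2-fold. The polyubiquitin gene Ubb lay at 0.02, and the conjugating enzyme genes Cdc34 (27433 and 16250 units, 0.96) and Ube2k (0.78) were highest. The main activating enzyme gene Uba1 was lowest at -0.27, with probes at 0.63 and -1.18, before the ubiquitin fusion gene Rps27a (-0.07). Shuttle receptors and the p97 machinery, which pass substrates to the proteasome, had a median of 0.38 over 12 genes, again with 0 past 2-fold, from Nsfl1c (0.79) and Faf2 (0.72) to Nploc4 (-0.16).

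The immunoproteasome serves MHC class I presentation, whose 14 other genes had a median of 0.39 with 0 past 2-fold. Tap2 (0.90) and the chaperone gene Canx (0.86) were highest, the light chain gene B2m lay at 0.23, and Tapbpl (-0.34) and Tapbp (1266 and 2300 units, -0.66) were lowest. Of 17 interferon response genes with a probe 9 were measured, with a median of 0.33, 0 past 2-fold and 9 of 9 above 0, where 66.9% of all measured genes lay; 5 of 9 do with the percentile over probes seen on both arrays. Irf1, an interferon-induced activator of immunoproteasome genes, gave 1965 and 1285 units (0.81) and Stat2 lay at 0.84, while Ifit3 (0.06) and Irf9 (0.03) were lowest. Irf7, Ifit1 and Rsad2 were not well above background on either array, and 4 further genes passed on the SoNar-low array only. Their signals there (23.9 to 43.0 units) lay under 46.4, the lowest that passed on the SoNar-high array, so these calls show no difference. Of all spots 44.8% passed on the SoNar-high array and 72.9% on the SoNar-low array.

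With median scaling 3 to 6 genes of each of these 6 pathway lists were at least 2-fold higher, and so were 32.1% of all measured genes.

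Set beside other large complexes, measured proteasome members (median 0.40) stood above cytosolic ribosomal protein genes (0.10 over 76) and above the chaperonin that folds actin and tubulin (0.18 over 8). Relative to the median gene these medians are 0.17, -0.12 and -0.05. The difference between complexes was not tested.

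Markers of the labelled cell type were present in part. Of 10 B-lineage markers 8 were measured, and Igll1 and Rag1 were not well above background on either array. The 8 ran from -0.08 (Pax5) to 0.98 (Ebf1), with a median of 0.36 and Cd79a at 0.42. Of them 7 lay above 0, where 66.9% of all measured genes lay. With the percentile over probes seen on both arrays 5 of 8 did, against 43.9%. The summed signal of all 10 genes was 96.9 in SoNar-high and 74.4 in SoNar-low cells, in units of the 75th percentile. This sum and those below take in probes that failed the background test. Markers of other marrow cells differed too: the sums were 42.7 and 50.3 for 10 neutrophil genes, 1.03 and 1.51 for 7 monocyte and macrophage genes, 1.1 and 2.60 for 9 T and NK cell genes, 15.0 and 24.6 for 7 dendritic cell genes, and 57.2 and 33.0 for 8 erythroid genes. A single bright gene, picked out here after its values were seen, gives most of each of the last sums: Siglech (-0.90) among the dendritic and Hemgn (22791 and 14153 units, 0.89) among the erythroid genes, of which the other 3 measured were lower in SoNar-high cells (2 of them with median scaling). All 4 measured T and NK cell genes were lower in SoNar-high cells by 2-fold or more, against 4.39% of all measured genes, but 1 of 4 is with median scaling. Above 0 lay 2 of 9 measured neutrophil genes and 1 of 4 measured monocyte and macrophage genes. With median scaling 5 of 9 and 2 of 4 did, where 89.4% of all measured genes lay above 0. Median scaling also reverses the order of the neutrophil sums and of the monocyte and macrophage sums. The order of the B-lineage, T and NK cell, dendritic and erythroid sums is the same under the constant scalings used here. Proteasome genes are active in all these cells, and the part of the cell mix in the values above was not tested; in such samples fewer cells of a type and less RNA per cell cannot be told apart.

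**Figure D4:**
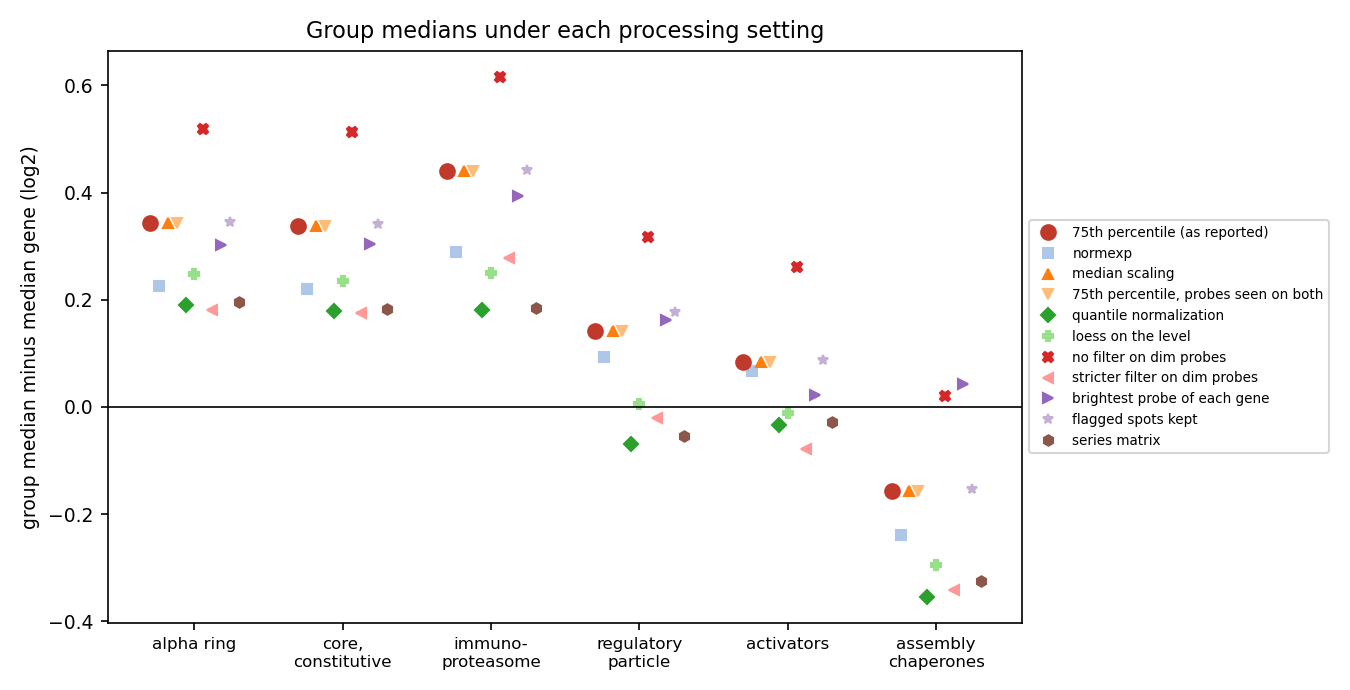
Median of each group of proteasome genes minus the median gene (log2, y axis) under the reported processing and 10 other settings (symbols), by group on the x axis. The alpha ring, the constitutive core and the immunoproteasome lie above 0 under all 11, between 0.18 and 0.62, while the regulatory particle, the activators and the assembly chaperones fall on both sides. The immunoproteasome median is over 3 genes, of which Psmb8 itself falls on both sides of the median gene (-0.23 to 0.18).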

How the data were processed

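Per the labels' protocols, total RNA of each sorted population was labelled with Cy3 from 1 µg and hybridised to 1 array. The deposited scanner files give an intensity per spot, extracted with Agilent Feature Extraction 11.0.1.1 per the file headers (9.1 per the submitters' processing notes), background-subtracted and not scaled between arrays. The authors' deposited series matrix holds log2 values with a median of 5.90 on both arrays; its centring is not given in the sources used here.

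Spots flagged as non-uniform or population outliers, and controls, were dropped, replicate spots were averaged in log2, and each array's 75th percentile was subtracted. A gene's difference is the mean of those of its probes that pass the background test on each array. Probes were named by RefSeq accession without version through a GRCm38 gene table (27115 of 39085 probes). Calls were made at 2-fold by size alone, with no p-value. The array design is of build mm9, so array coordinates are not given. The members and lists were chosen with earlier results of these data known. All members are named; of each pathway list the 2 highest and 2 lowest measured genes are, with a few genes always given (Adrm1 had no matched probe in use); some genes of these lists are not reported here. The mean signal being absent from the columns, normexp (offset 50) used the median signal. Loess had a span of 0.3. The steps were tested on simulated data with equal noise on both arrays and no change of the difference with brightness. Such data cannot show how the scalings act on a trend with brightness like that seen here. Python 3.11.15, numpy 2.4.6, pandas 2.3.3, statsmodels 0.14.6, R 4.3.3 and limma 3.58.1 were used.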

Additional observations from a re-analysis of the deposited data

How the results depend on the processing

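No paired analysis was possible because each population has 1 array. The count of members past 2-fold was 0 in each direction under all 10 other settings except median scaling, which gave 23 higher. At 1.5-fold it was 14 higher and 1 lower, and at 3-fold 0. The members' median stood 0.17 above the median gene; it stood -0.020 from it with quantile normalization, 0.0033 with the series matrix and 0.35 with no filter on dim probes, where the median gene includes genes at background. The other settings gave 0.042 to 0.29. The lowest compares with genes in the members' range of levels and the highest leaves out the 7 genes whose probes lie on both sides of 0, both chosen after seeing the data, as were the list counts under other scalings. The difference between immunoproteasome and constitutive subunits moved by less than the spread between spots (0.15) under every alternative. Of the 47 members 23 lay above the median gene under every setting run, 10 below and 14 on both sides; Psmd10 gave no value with the stricter filter. The number of arrays, 1 per population, and the disagreement between probes limit the precision, and 36 of the 47 genes rest on 1 probe.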
